A study of Mus musculus with 16 samples.

Results

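The cytochrome P450 genes of families 1 to 3 were followed across liver libraries, with white adipose tissue (WAT) as a contrast, in an RNA-seq study of NOX_6_18, an antagonist of the G protein-coupled receptor GPR132. Members were the protein-coding genes whose symbol in the mouse annotation GENCODE M21 starts with Cyp1a, Cyp1b, Cyp2 and a letter, or Cyp3a, and which had 10 or more counts in at least 2 of the 8 liver libraries. This gave 38 of 61 such genes, among 55421 genes in the tables. Of the members, 3 belong to family 1, 31 to family 2 and 4 to family 3. They lie on 9 chromosomes, with 11 on chromosome 19, where all Cyp2c members sit, and 10 on chromosome 7.

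All animals were C57BL/6 mice on a diet labelled HFD. Each tissue had 4 groups of 2 libraries. These were fl/fl mice given NOX_6_18, CKO mice given vehicle, CKO mice given NOX_6_18, and fl/fl mice given vehicle. The fl/fl genotype carries floxed Gpr132 alone, and CKO adds Lyz2-cre, which expresses Cre recombinase from a myeloid gene, so loxP sites are present in every group. Per the labels, tissue was put in liquid nitrogen and the RNA is of macrophages. Neither the dose nor the age is given in the sources used here. Whether the 2 libraries of a group are separate animals is not labelled, so each p-value covers the spread between libraries alone, and that spread may be technical.

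Cytochrome P450 enzymes are haem proteins of the endoplasmic reticulum that insert an oxygen atom into lipophilic substrates, with electrons passed on by P450 oxidoreductase (Por) or cytochrome b5 (Cyb5a). Families 1 to 3 handle most drugs, pollutants and many steroids and fatty acids, and hepatocytes are their best known site. Ligand-activated receptors set their transcription: the aryl hydrocarbon receptor (Ahr) for family 1, the constitutive androstane receptor (Nr1i3) for Cyp2b and Cyp2c genes, and the pregnane X receptor (Nr1i2) for Cyp3a genes, while several mouse members are expressed more in 1 sex.

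The liver libraries held 45624957 to 60761705 counts, of which mitochondrially encoded genes took 43.0 to 44.9%, and the WAT libraries 48348395 to 58396991. Macrophage RNA was present in liver, with the Kupffer cell genes Clec4f and Cd5l at 481 to 577 and 550 to 669 CPM, which are counts scaled by library size. Hepatocyte RNA was present as well, with 17 hepatocyte markers summing to 3416 to 4096 CPM and albumin (Alb) at 1743 to 2024 CPM, and markers of sinusoidal endothelium summed to 8850 to 10660 CPM. In bulk RNA, fewer cells of a type and less RNA per cell cannot be told apart. Every library had RNA of 4 Y-linked genes, summing to 104 to 233 CPM, with Xist at most at 0.875 CPM. Gpr132 had 2.13 and 1.64 CPM in fl/fl livers on NOX_6_18, 1.86 and 1.46 CPM in CKO livers on vehicle, 2.81 and 2.41 CPM in CKO livers on NOX_6_18, and 4.26 and 4.04 CPM in fl/fl livers on vehicle. Its counts cover the whole gene and no label names the floxed exons, so they do not check the genotype, and the groups are used as labelled.

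Promoters are shown for the 5 members that were called against fl/fl vehicle liver with a change of 1 or more on the log2 scale, together with the motifs found in them, as the stretch of 250 bases before the transcription start. The sequences are RefSeq's on GRCm38.p6, written 5′ to 3′ on the gene's strand. Capitals mark AGGTCA and AGTTCA, half-sites of nuclear receptors, GCGTG, the core bound by the aryl hydrocarbon receptor, and TATAAA, the TATA box, on either strand. The Cyp3a11 promoter lies on the minus strand at chr5:145879855-145880104, that of Cyp3a25 on the minus strand at chr5:146009618-146009867, and that of Cyp2b9 on the plus strand at chr7:26173159-26173408. The Cyp2ab1 promoter lies on the minus strand at chr16:20325405-20325654 and that of Cyp1a1 on the plus strand at chr9:57697363-57697612.
Cyp3a11: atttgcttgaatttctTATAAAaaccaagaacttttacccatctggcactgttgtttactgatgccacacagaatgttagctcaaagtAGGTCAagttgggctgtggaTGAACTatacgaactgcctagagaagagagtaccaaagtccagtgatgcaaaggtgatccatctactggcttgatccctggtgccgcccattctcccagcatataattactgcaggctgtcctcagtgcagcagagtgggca
Cyp3a25: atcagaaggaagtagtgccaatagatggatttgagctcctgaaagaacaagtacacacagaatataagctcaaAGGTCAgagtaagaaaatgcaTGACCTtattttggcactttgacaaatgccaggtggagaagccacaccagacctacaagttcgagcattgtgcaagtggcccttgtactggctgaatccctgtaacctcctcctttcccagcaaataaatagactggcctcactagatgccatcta
Cyp2b9: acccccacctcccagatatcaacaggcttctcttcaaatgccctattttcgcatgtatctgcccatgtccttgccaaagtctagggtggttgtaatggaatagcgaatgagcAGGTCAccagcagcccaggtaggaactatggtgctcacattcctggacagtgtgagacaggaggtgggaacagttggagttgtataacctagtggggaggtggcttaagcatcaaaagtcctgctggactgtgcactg
Cyp2ab1: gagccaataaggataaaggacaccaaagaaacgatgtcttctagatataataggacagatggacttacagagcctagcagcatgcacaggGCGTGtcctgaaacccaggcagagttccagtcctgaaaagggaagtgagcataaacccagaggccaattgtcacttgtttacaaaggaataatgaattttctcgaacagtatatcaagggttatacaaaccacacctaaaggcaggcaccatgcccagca
Cyp1a1: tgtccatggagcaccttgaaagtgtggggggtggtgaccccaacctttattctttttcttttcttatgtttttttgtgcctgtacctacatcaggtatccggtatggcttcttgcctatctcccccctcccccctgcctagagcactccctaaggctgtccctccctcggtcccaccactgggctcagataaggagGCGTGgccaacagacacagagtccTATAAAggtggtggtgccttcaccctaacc

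Both Cyp3a promoters carry an AGGTCA, and Cyp3a25 carries it once on each strand. Counting bases from 1 at the 5′ end, Cyp3a11 has TATAAA at 17, AGGTCA at 89 and AGTTCA, on the other strand, at 109, and Cyp3a25 has AGGTCA at 74 and 95. Cyp2b9 has AGGTCA at 113, whereas Cyp2ab1 has GCGTG at 91 and Cyp1a1 has GCGTG at 197 and TATAAA at 221. Promoters from 250 bases before to 50 after the start were listed for 34 members, 35 promoters in all. Cyp3a25 was listed with a further, almost identical promoter, of which that of Cyp3a59 is a near copy. The promoters of Cyp2a4 and Cyp2a5 are near copies of each other, so member promoters are not independent. In Cyp2a4, Cyp2a5 and Cyp2d40 the AGGTCA lies after the start. AGGTCA occurred in 37.1% of member promoters and in 16.3% of all 32841 promoters of that length, and TATAAA in 54.3% and 13.6%. AGTTCA occurred in 8.57% of member promoters and 14.0% of all, and GCGTG in 17.1% and 32.4%. No member promoter held TTCNNNGAA, the STAT palindrome, TTATGTAA, the D-box of clock output factors, or TTGCGCAA, the C/EBP palindrome, which occurred in 8.30%, 0.938% and 0.183% of all promoters. A match is a run of letters and not a shown binding site.

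In liver, the members together took 0.0360 to 0.0388% of the counts of a library. Cyp2e1, the ethanol- and acetaminophen-oxidising enzyme of pericentral hepatocytes, alone took 21.1 to 27.2% of the members' summed counts. Per kilobase of exon, Cyp2e1 had a median of 44.5 CPM in the 8 liver libraries (37.6 to 46.8). Cyp2d22 followed at 15.0 (13.3 to 15.6), then Cyp2f2, which oxidises naphthalene, at 10.9 (9.73 to 15.3) CPM per kb. Cyp2d26, Cyp2d10 and Cyp2d9, the last a male-biased testosterone hydroxylase, had medians of 8.09, 8.10 and 7.12 CPM per kb. The range of Cyp2e1 lay above all others, while each later gene in this order overlapped the one before it. Cyp2j5, which makes epoxides of arachidonic acid, had 4.96 CPM per kb and Cyp2j6 had 5.02. The coumarin hydroxylase Cyp2a5 had 4.34 and Cyp2c70, which makes muricholic acids, had 3.93. The other 28 members had medians from 0.0147 (Cyp2a22) to 3.42 CPM per kb (Cyp1b1). The 10 highest by mean level were the same 10 when the longest transcript served as the length.

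**Figure D1:**
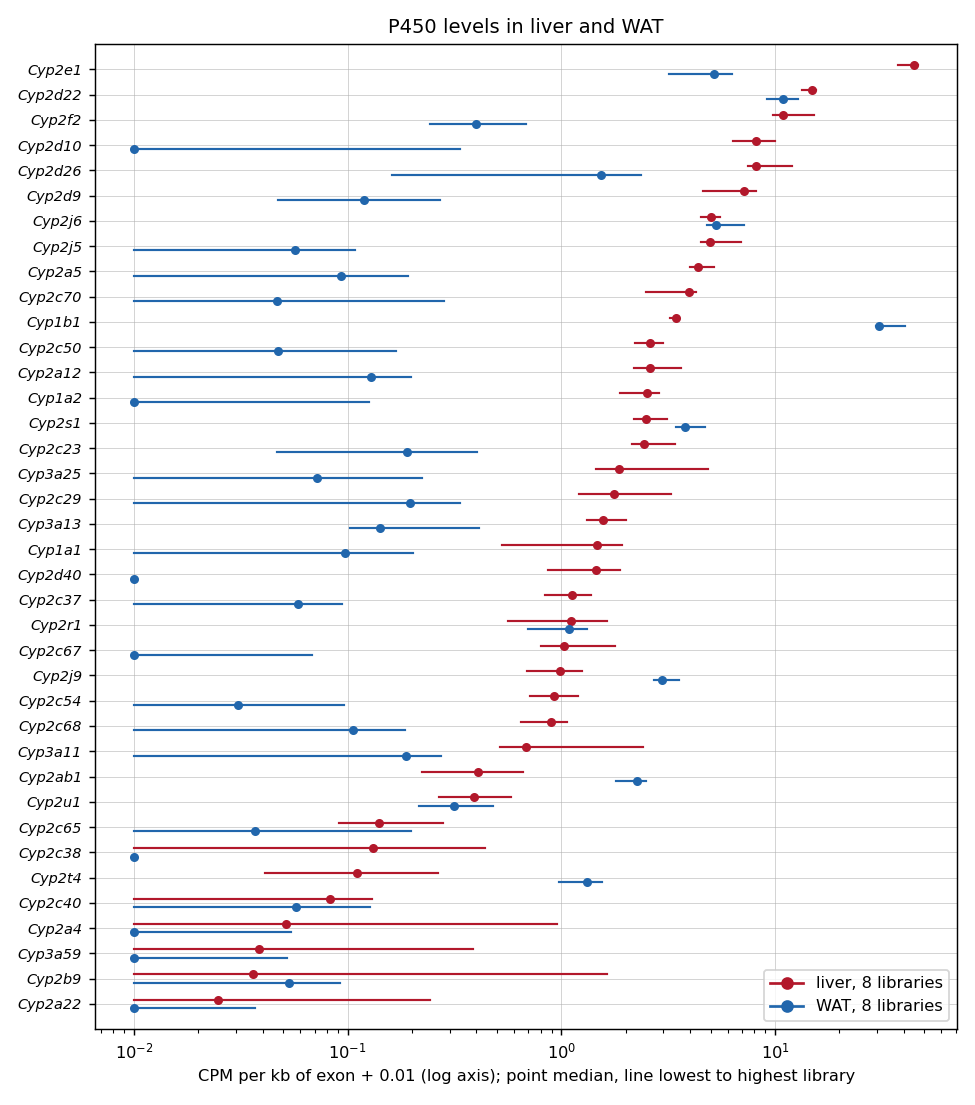
Level of each of the 38 members as CPM per kb of exon plus 0.01 on a log axis, in liver (red) and WAT (blue), with the median as a point and a line from the lowest to the highest of 8 libraries; libraries were normalised within each tissue. Cyp2e1 stands highest in liver with a median of 44.5 CPM per kb, and Cyp1b1 highest in WAT with 30.7 CPM per kb.

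Levels in liver and WAT are given as a description without a test, since liver counts chose the members and each tissue was normalised on its own. Mitochondrially encoded genes took 43.0 to 44.9% of liver counts and 2.31 to 3.61% of WAT counts. This lowers the CPM of other genes in liver relative to WAT. Which genes lay above, below or overlapped therefore holds for this scale alone. All 8 liver libraries lay above all 8 WAT libraries for 23 members, and below them for 5; of the 26751 genes fitted over both tissues, 4.33% and 49.5% did so. The members above WAT included Cyp2e1, with a median of 5.19 CPM per kb in WAT, and Cyp2f2, with 0.389 CPM per kb in WAT. Those below were Cyp1b1, Cyp2ab1, Cyp2j9, Cyp2s1 and Cyp2t4. Cyp1b1, an aryl hydrocarbon receptor target that oxidises oestradiol and is known mainly outside hepatocytes, had 3.42 CPM per kb in liver and 30.7 (29.7 to 40.7) in WAT. It took 57.7 to 65.6% of the members' summed counts in WAT. Cyp2j6, Cyp2r1, a vitamin D hydroxylase, and Cyp2u1, a fatty acid hydroxylase, overlapped between tissues, with Cyp2r1 at 1.09 CPM per kb in liver and 1.07 in WAT. No WAT library had a count for Cyp2c38 or Cyp2d40, where a count of 0 allows at most 3 counts.

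Of the 61 annotated genes, 23 did not pass the count rule, 14 of them with no count in any liver library. Among these 23 are Cyp2b10, the standard target of the constitutive androstane receptor, and Cyp2b13, Cyp2c39, Cyp3a41a and Cyp3a44, known as female-biased or inducible liver genes, and none had more than 8 counts in a liver library. Cyp2b9, Cyp2a4 and Cyp2a22 passed the rule through the fl/fl vehicle libraries alone, so their standing above the other groups was fixed by the choice of members, and it is described without being read as support. Just inside the rule, Cyp2a22 had 47 and 24 counts in fl/fl livers on vehicle and at most 8 elsewhere, and Cyp2c40 had at most 14 counts in a library and none in fl/fl livers on vehicle, so it entered through the other groups alone. Many members are near copies. Of all stretches of 50 bases in their transcripts, 60.3% of those of Cyp2c40, 38.8% of Cyp2a4, 37.0% of Cyp2a5, 35.8% of Cyp2d10, 26.8% of Cyp3a25, 11.2% of Cyp2b9 and 6.73% of Cyp3a11 also occur in another gene, so their counts could be split or lost. Exons of 8 members, among them Cyp2a4, Cyp2c29, Cyp2d10, Cyp2d9 and Cyp2f2, overlap those of another gene, and no source used here states whether the counting used strand.

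NOX_6_18 was first compared with vehicle in fl/fl livers. Both Cyp3a genes that hepatocytes express most, Cyp3a11 and Cyp3a25, fell, along with Cyp2b9, Cyp2ab1, Cyp2d26 and Cyp2f2. Thus 6 of 38 members were called lower (adjusted p under 0.05, edgeR's quasi-likelihood test, adjusted over 19515 genes), against 1.74% of all genes tested. Cyp2b9, which entered through the fl/fl vehicle libraries alone, is among these 6, so the count is not independent of the choice of members. None was called higher, against 3.78% of all genes. In either direction 18 members had an unadjusted p under 0.05, and DESeq2 called 2 higher and limma-voom 1. The share of all genes was not computed for these counts, so they are not read as a result about the members. The median log2 fold change was -0.09 over the members and -0.00486 over all genes.

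Cyp3a11, located at chr5:145854426-145879964 on the minus strand of GRCm38, is the main Cyp3a enzyme of mouse liver and oxidises bile acids and many drugs. It had 3.23 and 2.58 CPM in fl/fl livers on NOX_6_18, 3.84 and 3.09 CPM in CKO livers on vehicle, and 2.57 and 3.63 CPM in CKO livers on NOX_6_18, against 12.2 and 11.7 CPM in fl/fl livers on vehicle. The fl/fl vehicle libraries stood above the other 6, which overlapped one another. For Cyp3a11 the log2 fold change on NOX_6_18 against vehicle in fl/fl livers was -2.04 ± 0.22 (SE; edgeR adjusted p = 0.00103, n = 2 per group). Cyp3a25, its neighbour at chr5:145977194-146009618, had 3.96 and 4.19 CPM in fl/fl livers on NOX_6_18, 3.18 and 3.55 CPM in CKO livers on vehicle, and 3.004 and 3.75 CPM in CKO livers on NOX_6_18, against 9.25 and 10.1 CPM in fl/fl livers on vehicle. Its log2 fold change on NOX_6_18 in fl/fl was -1.25 ± 0.17 (SE; edgeR adjusted p = 0.00354). In both genes the fl/fl vehicle libraries were the only high ones. Cyp3a13, a Cyp3a gene also expressed in intestine, had 4.71 and 5.87 CPM in fl/fl livers on NOX_6_18, 4.38 and 4.14 CPM in CKO livers on vehicle, and 3.86 and 4.99 CPM in CKO livers on NOX_6_18, against 4.48 and 5.14 CPM in fl/fl livers on vehicle, with a log2 fold change on NOX_6_18 in fl/fl of 0.14 ± 0.19 (SE; edgeR adjusted p = 0.80). Cyp3a59, which shares 30.0% of its 50-base stretches with other genes, mainly Cyp3a25, had 0 and 0.262 CPM on NOX_6_18 and 0.308 and 0.750 CPM on vehicle, and was not called.

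**Figure D2:**
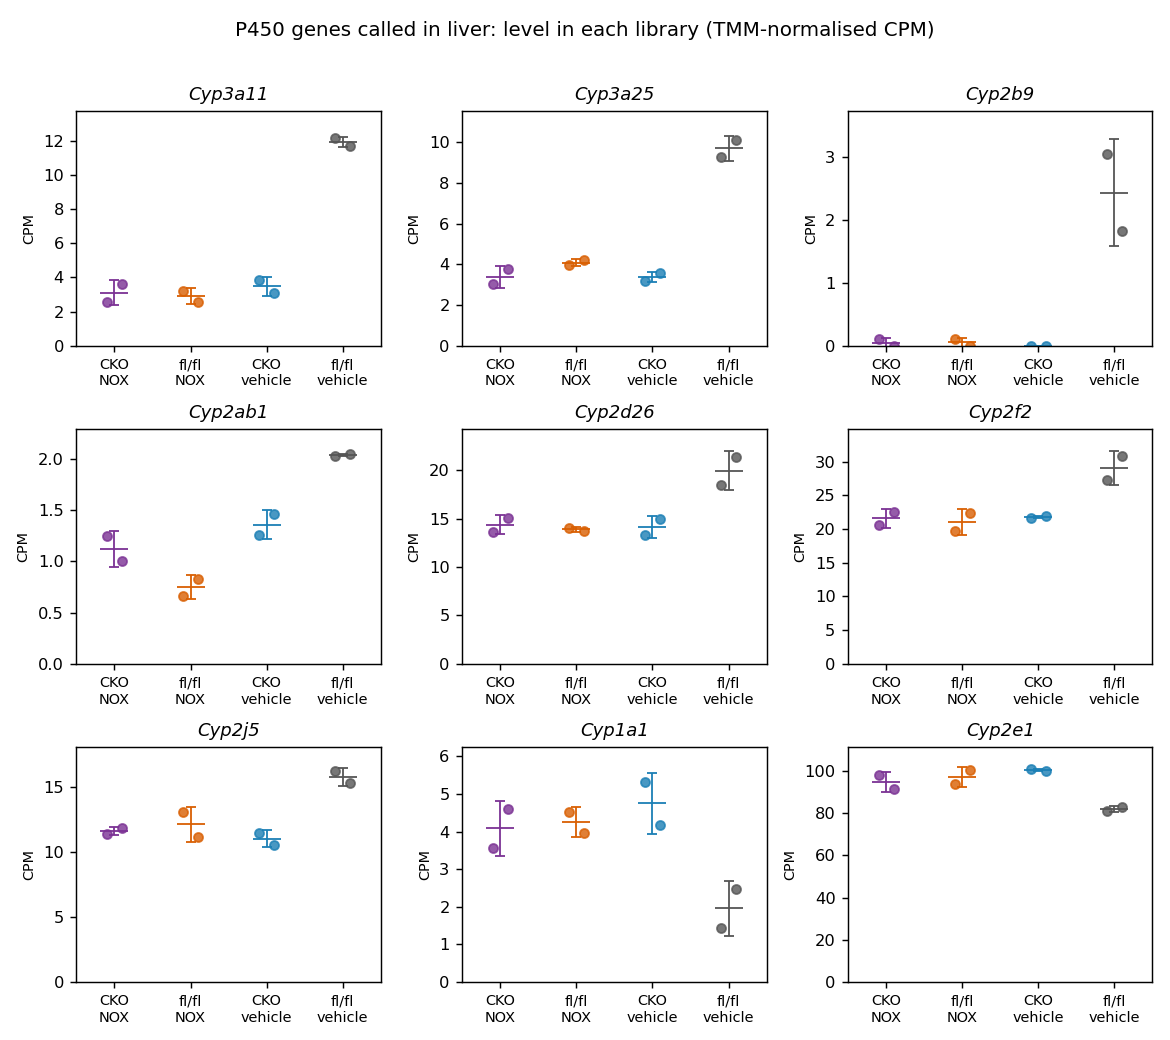
TMM-normalised CPM of the 9 members called in a liver comparison, in CKO livers on NOX_6_18, fl/fl livers on NOX_6_18, CKO livers on vehicle and fl/fl livers on vehicle; points are libraries, bars the mean ± SD of 2. For Cyp3a11 both fl/fl vehicle libraries lie at 11.7 or above and the other 6 at 3.84 or below.

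Cyp2b9, a female-biased member related to the phenobarbital-inducible Cyp2b10, lies at chr7:26173411-26210661 on the plus strand. It had 6 and 0 counts in fl/fl livers on NOX_6_18, 0 and 0 in CKO livers on vehicle, and 5 and 0 in CKO livers on NOX_6_18, against 178 and 83 counts in fl/fl livers on vehicle. Since these counts in fl/fl vehicle alone made it a member, the difference is a description. On NOX_6_18 in fl/fl its log2 fold change was -5.43 ± 1.21 (SE), called by edgeR (adjusted p = 0.0476) but not by DESeq2 (adjusted p = 0.354) or limma-voom. Cyp2a4, the female-biased steroid hydroxylase that is nearly identical to Cyp2a5, showed like counts, with 4 and 0 in fl/fl livers on NOX_6_18, 4 and 0 in CKO livers on vehicle and 4 and 4 in CKO livers on NOX_6_18, against 45 and 74 in fl/fl livers on vehicle. It became a member in the same way. Its log2 fold change of -4.97 ± 1.36 (SE) was not called by edgeR (adjusted p = 0.0804) and was called by DESeq2 (adjusted p = 0.0028). Cyp2a5 itself had 8.29 and 8.56 CPM in fl/fl livers on NOX_6_18, 8.93 and 9.07 CPM in CKO livers on vehicle, and 8.39 and 9.32 CPM in CKO livers on NOX_6_18, against 10.7 and 10.1 CPM in fl/fl livers on vehicle, and was not called (log2 fold change -0.30 ± 0.12, edgeR adjusted p = 0.24).

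Cyp2f2 and Cyp2d26, which were more abundant than Cyp3a11 and Cyp3a25, changed less, while Cyp2ab1 was less abundant. Cyp2f2 had 19.7 and 22.4 CPM in fl/fl livers on NOX_6_18, 21.6 and 21.9 CPM in CKO livers on vehicle, and 20.6 and 22.6 CPM in CKO livers on NOX_6_18, against 27.3 and 30.9 CPM in fl/fl livers on vehicle, and its log2 fold change on NOX_6_18 in fl/fl was -0.47 ± 0.10 (SE; edgeR adjusted p = 0.0394). Cyp2d26 had 14.1 and 13.7 CPM in fl/fl livers on NOX_6_18, 13.3 and 14.9 CPM in CKO livers on vehicle, and 13.7 and 15.1 CPM in CKO livers on NOX_6_18, against 18.5 and 21.4 CPM in fl/fl livers on vehicle (log2 fold change on NOX_6_18 in fl/fl -0.52 ± 0.12 SE, edgeR adjusted p = 0.0432). Cyp2ab1 had 0.666 and 0.830 CPM in fl/fl livers on NOX_6_18, 1.26 and 1.46 CPM in CKO livers on vehicle, and 1.25 and 1.00 CPM in CKO livers on NOX_6_18, against 2.04 and 2.05 CPM in fl/fl livers on vehicle (-1.45 ± 0.32, edgeR adjusted p = 0.0344). In each of these genes the fl/fl vehicle libraries were the highest, and for Cyp2ab1 the fl/fl NOX_6_18 libraries were the lowest. Leaving out any 1 of the 4 libraries took the calls of Cyp2f2 (edgeR adjusted p 0.0673 to 0.224), Cyp2d26 (0.0675 to 0.236), Cyp2ab1 (0.106 to 0.172) and Cyp2b9 (0.0738 to 0.255), whereas Cyp3a11 (0.00737 to 0.0128) and Cyp3a25 (0.0192 to 0.0354) stayed called. None of the 3 family 1 members, 4 Cyp2a, 11 Cyp2c and 3 Cyp2j members was called.

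CKO was next compared with fl/fl in livers on vehicle. This comparison shares the fl/fl vehicle libraries with the one above, so the values are set side by side and are not independent. Cyp3a11, Cyp3a25, Cyp2b9, Cyp2d26 and Cyp2j5 were lower and Cyp1a1 and Cyp2e1 higher. These 5 and 2 of 38 members stand against 1.83% lower and 3.96% higher of all genes tested, and the 5 again include Cyp2b9, a member through fl/fl vehicle alone. The median log2 fold change was -0.18 over the members and -0.00714 over all genes.

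Cyp3a11 fell by 1.78 ± 0.21 on the log2 scale in CKO livers on vehicle (SE; edgeR adjusted p = 0.00199), and Cyp3a25 by 1.53 ± 0.17 (SE; edgeR adjusted p = 0.00132). Both calls stayed with any 1 of the 4 libraries left out (edgeR adjusted p at most 0.0205). Cyp2b9, with no count in either CKO vehicle library, was at least 100-fold lower than the 261 counts of the fl/fl vehicle group, taking 3 counts over the group as the floor (edgeR adjusted p = 0.0200), a description since those 261 counts made it a member. It was not called with limma-voom. Cyp2j5, an arachidonic acid epoxygenase of liver and kidney, had 11.5 and 10.5 CPM in CKO livers on vehicle, 13.1 and 11.1 CPM in fl/fl livers on NOX_6_18, and 11.4 and 11.8 CPM in CKO livers on NOX_6_18, against 16.2 and 15.2 CPM in fl/fl livers on vehicle (log2 fold change -0.52 ± 0.12 SE, edgeR adjusted p = 0.0495). Cyp2d26, whose values are given above, was lower as well (-0.50 ± 0.12, edgeR adjusted p = 0.0495).

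Cyp1a1, the most inducible target of the aryl hydrocarbon receptor, lies at chr9:57687928-57703824. It had 5.33 and 4.17 CPM in CKO livers on vehicle, against 1.44 and 2.47 CPM in fl/fl livers on vehicle, and was higher by 1.29 ± 0.29 on the log2 scale (SE; edgeR adjusted p = 0.0364). In fl/fl livers on NOX_6_18 it had 4.53 and 3.97 CPM, a log2 fold change of 1.13 ± 0.29 that edgeR did not call (adjusted p = 0.063) and DESeq2 called. In CKO livers on NOX_6_18 it had 3.57 and 4.59 CPM, so the fl/fl vehicle libraries lay below the other 6. Its family members moved less. Cyp1a2, an arylamine oxidase of hepatocytes, had 4.44 and 4.99 CPM in CKO livers on vehicle, 5.68 and 5.37 CPM in fl/fl livers on NOX_6_18, and 5.11 and 5.75 CPM in CKO livers on NOX_6_18, against 3.78 and 4.43 CPM in fl/fl livers on vehicle (log2 fold change in CKO 0.20 ± 0.16, edgeR adjusted p = 0.61). Cyp1b1 had 19.8 and 20.1 CPM in CKO livers on vehicle, 19.7 and 18.8 CPM in fl/fl livers on NOX_6_18, and 20.6 and 20.5 CPM in CKO livers on NOX_6_18, against 19.7 and 20.6 CPM in fl/fl livers on vehicle (-0.01 ± 0.09, edgeR adjusted p = 0.97).

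Cyp2e1 had 101 and 100.2 CPM in CKO livers on vehicle, 93.9 and 101 CPM in fl/fl livers on NOX_6_18, and 98.1 and 91.6 CPM in CKO livers on NOX_6_18, against 81.0 and 83.0 CPM in fl/fl livers on vehicle. It was higher in CKO livers on vehicle by 0.29 ± 0.06 (SE; edgeR adjusted p = 0.0288), but scaling by hepatocyte markers turned this to -0.29. Leaving out 1 library took the calls of Cyp2e1, Cyp2b9, Cyp2d26 and Cyp2j5 in each of the 4 cases (edgeR adjusted p 0.0582 to 0.263), and that of Cyp1a1 in 3 of 4 (0.0720 to 0.185), the exception being fl/fl vehicle library 2 (0.0238).

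**Figure D3:**
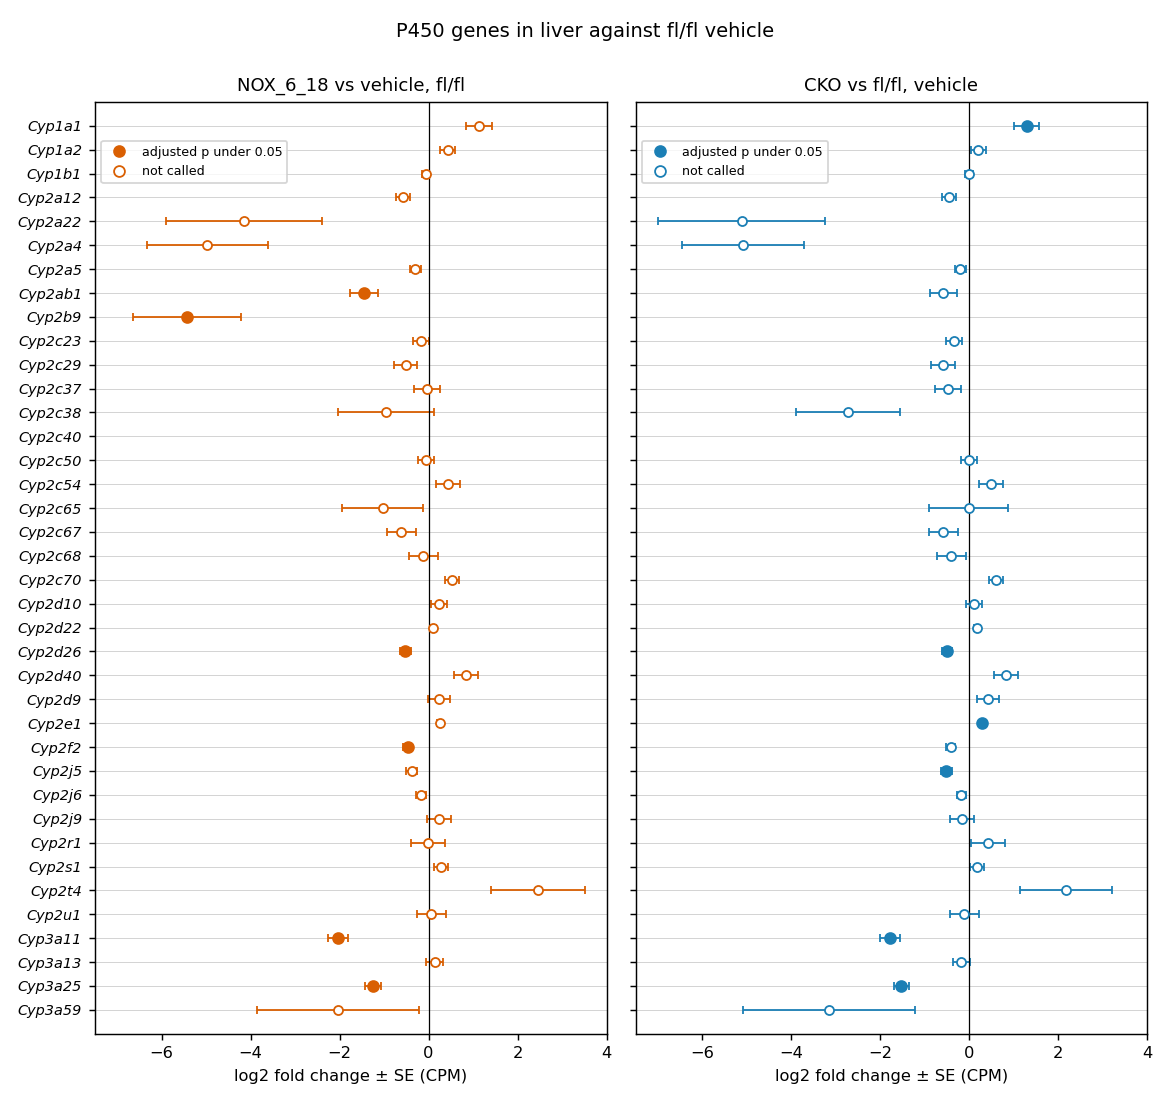
Log2 fold change ± SE of the members in liver, for NOX_6_18 against vehicle in fl/fl (left) and CKO against fl/fl on vehicle (right), both against the same fl/fl vehicle libraries; filled points are called. Cyp2c40 in both panels and Cyp2b9 in the right one are not drawn, since a group had no count. Cyp3a11 lies at -2.04 (left) and -1.78 (right).

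The other Cyp2c, Cyp2d and Cyp2j members were not called, and some of them still lay apart between groups. Cyp2d40 had 2.55 and 3.38 CPM in fl/fl livers on NOX_6_18, 2.66 and 3.16 CPM in CKO livers on vehicle, and 2.32 and 3.32 CPM in CKO livers on NOX_6_18, against 1.54 and 1.74 CPM in fl/fl livers on vehicle, which were the lowest. Cyp2c29, an inducible hydroxylase of liver, had 5.21 and 5.61 CPM in fl/fl livers on NOX_6_18, 4.62 and 5.68 CPM in CKO livers on vehicle, and 3.67 and 4.18 CPM in CKO livers on NOX_6_18, against 5.56 and 9.97 CPM in fl/fl livers on vehicle, where the 2 libraries themselves differed most. Cyp2c70 had 8.39 and 6.81 CPM in fl/fl livers on NOX_6_18, 8.17 and 7.79 CPM in CKO livers on vehicle, and 7.80 and 8.20 CPM in CKO livers on NOX_6_18, against 5.61 and 4.90 CPM in fl/fl livers on vehicle. Its fl/fl vehicle libraries lay below the other 6, with edgeR adjusted p of 0.096 for NOX_6_18 in fl/fl and 0.065 for CKO on vehicle. Cyp2d22 had 58.0 and 59.1 CPM in fl/fl livers on NOX_6_18, 61.0 and 61.0 CPM in CKO livers on vehicle, and 56.4 and 58.9 CPM in CKO livers on NOX_6_18, against 56.7 and 52.0 CPM in fl/fl livers on vehicle. Cyp2d10 had 13.9 and 16.5 CPM in fl/fl livers on NOX_6_18, 12.8 and 15.1 CPM in CKO livers on vehicle, and 10.5 and 12.2 CPM in CKO livers on NOX_6_18, against 10.8 and 14.9 CPM in fl/fl livers on vehicle. For Cyp2d22 the fl/fl vehicle libraries lay below those of fl/fl on NOX_6_18 and of CKO on vehicle, and overlapped CKO on NOX_6_18 alone. For Cyp2d10 the fl/fl vehicle libraries overlapped each other group.

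Cyp2d9 had 16.1 and 21.4 CPM in fl/fl livers on NOX_6_18, 20.8 and 21.6 CPM in CKO livers on vehicle, and 21.6 and 12.2 CPM in CKO livers on NOX_6_18, against 17.04 and 14.8 CPM in fl/fl livers on vehicle. Cyp2j6 had 18 and 16.4 CPM in fl/fl livers on NOX_6_18, 16.2 and 18.2 CPM in CKO livers on vehicle, and 18.8 and 16.9 CPM in CKO livers on NOX_6_18, against 19.8 and 19.1 CPM in fl/fl livers on vehicle, which were the highest. Cyp2r1 had 1.93 and 1.77 CPM in fl/fl livers on NOX_6_18, 2.86 and 2.17 CPM in CKO livers on vehicle, and 3.45 and 2.45 CPM in CKO livers on NOX_6_18, against 2.57 and 1.17 CPM in fl/fl livers on vehicle, which overlapped each other group. Cyp2u1 had 1.95 and 1.88 CPM in fl/fl livers on NOX_6_18, 2.03 and 1.36 CPM in CKO livers on vehicle, and 2.20 and 2.98 CPM in CKO livers on NOX_6_18, against 1.51 and 2.16 CPM in fl/fl livers on vehicle. Its CKO libraries on NOX_6_18 were the highest, and the other groups overlapped. The log2 fold changes of the remaining members had SEs of up to 1.92 for genes of a few counts, such as Cyp3a59.

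Both fl/fl vehicle libraries lay outside the range of the other 6 liver libraries for 24 members, with 15 above and 9 below, where 12.2% and 12.7% of all genes tested did so. The 15 included all 4 Cyp2a members and 3 of 4 Cyp3a members, but for Cyp2a4, Cyp2a22 and Cyp2b9 the choice of members fixed this. Cyp3a59, also among the 15, needed the fl/fl vehicle libraries to pass the count rule. Those below included Cyp1a1, Cyp1a2, Cyp2e1, Cyp2c70 and Cyp2d40. They also included Cyp2c40 and Cyp2t4, which passed the rule through the other groups alone. Neither count is therefore independent of the choice of members.

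NOX_6_18 was also compared with vehicle in CKO livers, and CKO with fl/fl in livers on NOX_6_18. No member was called by edgeR in either, where 0.0359% of all genes were called in each, and none by DESeq2 or limma-voom. None and 1 member had an unadjusted p under 0.05, counts for which the share of all genes was not computed. The effect of NOX_6_18 differed between CKO and fl/fl for Cyp3a11, by 1.87 ± 0.30, and Cyp3a25, by 1.25 ± 0.24 (log2, SE; edgeR adjusted p = 0.0160 and 0.0347), which makes 2 members higher and 0 lower, against 0.584% and 1.87% of all genes. The other 36 were not called, with 15 members in all at an unadjusted p under 0.05, a count for which the share of all genes was not computed. Leaving out 1 library took the Cyp3a11 call in 5 of 8 cases (edgeR adjusted p up to 0.0640) and the Cyp3a25 call in 7 of 8 (up to 0.128). This contrast includes the same fl/fl vehicle libraries. In it 13 members were called higher when libraries were scaled by hepatocyte markers, which shifted the median of all genes to 0.59. The share of all genes called higher under that scaling was not computed.

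Scaling the liver libraries by the hepatocyte markers shifted the median log2 fold change of all genes to -0.59 for NOX_6_18 in fl/fl and -0.60 for CKO on vehicle. The split of called members became 1 higher and 19 lower, and 1 higher and 25 lower. The share of all genes called under this scaling was not computed, so these counts are not read as a result about the members. Of the 17 markers, 12 lay above both fl/fl vehicle libraries in all 6 other liver libraries and 3 below. Their sum was 3999 to 4096 CPM there and 3416 to 3585 CPM in fl/fl livers on vehicle, with no marker at 0. Among them Apoa1 had 366 to 402.5 CPM against 168 to 169 CPM, while Alb had 1743 to 1782 CPM against 1933 to 2024 CPM. Of 10 neutrophil markers, 9 were above in all 6, with a sum of 92.4 to 101.2 CPM against 12.4 to 16.7 CPM, and Ly6g had no count in fl/fl livers on vehicle. Cholangiocyte markers summed to 352 to 375 CPM against 539 to 549 CPM, with 5 of 8 below in all 6. Kupffer cell markers summed to 3196 to 3236 CPM against 2796 to 2845 CPM, with 10 of 13 above in all 6 and 0 below. Macrophage markers summed to 2611 to 2637 CPM against 2406 to 2445 CPM, with 3 of 13 above and 2 below. Markers of sinusoidal endothelium summed to 10475 to 10660 CPM against 8850 to 8869 CPM. The part of these cell types in the P450 values was not tested.

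Genes that serve or control the P450 enzymes changed in part. Of 16 xenobiotic receptors and regulators, 3 rose and 2 fell on NOX_6_18 in fl/fl livers, and 1 rose and 2 fell in CKO livers on vehicle. In each pair of values for these gene lists the first is for NOX_6_18 in fl/fl and the second for CKO on vehicle. Hnf4a, a hepatocyte transcription factor, had log2 fold changes of 0.97 ± 0.08 and 1.02 ± 0.08 (SE; edgeR adjusted p = 0.000204 and 0.000151), whereas Ahr fell by 0.32 ± 0.07 and 0.33 ± 0.07 (edgeR adjusted p = 0.0343 and 0.0280) and the clock output factor Dbp by 0.52 ± 0.10 and 0.53 ± 0.10 (0.0254 and 0.0225). The pregnane X receptor gene Nr1i2 had 3.505 to 4.82 CPM in the other 6 liver libraries and 3.34 and 1.28 CPM in fl/fl livers on vehicle. Nr1i3 had 2.99 to 8.495 CPM in the other 6 and 4.38 and 5.85 CPM in fl/fl livers on vehicle, so the groups overlapped, and neither was called. Of 15 genes for electron donors and haem supply, 3 rose in each comparison and none fell. They were Alas1, the first enzyme of haem synthesis (1.04 ± 0.11 and 0.90 ± 0.11), Cyb5a (0.33 ± 0.06 and 0.43 ± 0.06) and Hmox1, which degrades haem.

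**Figure D4:**
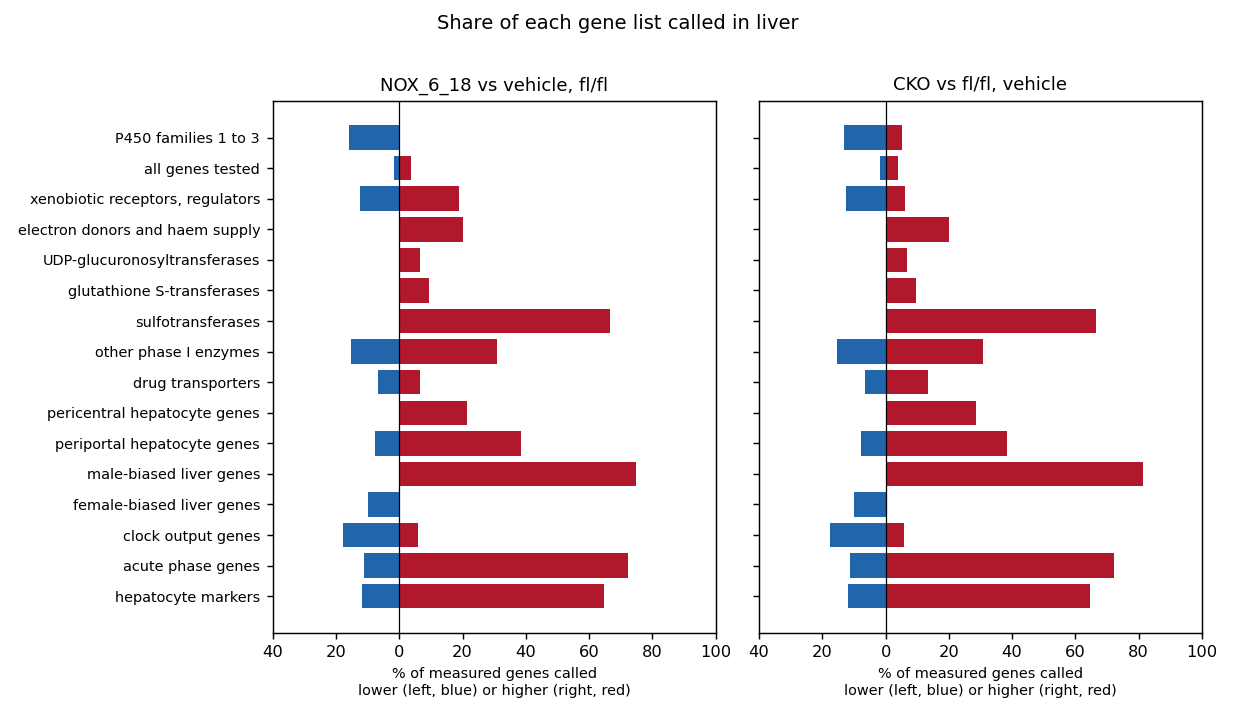
Percent of the measured genes of each list called higher (red, right) or lower (blue, left) in liver, for NOX_6_18 against vehicle in fl/fl and CKO against fl/fl on vehicle. Of the members 15.8% and 13.2% were called lower, while 75.0% and 81.2% of the male-biased liver genes were called higher.

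Enzymes that act beside the P450s did not share one direction. On NOX_6_18 in fl/fl livers, 4 of 6 measured sulfotransferases rose and none fell, as in CKO livers on vehicle, with Sult2a8 at log2 fold changes of 1.28 ± 0.07 and 1.28 ± 0.07 and Sult1d1 at 1.58 ± 0.16 and 1.54 ± 0.16. Of 26 other phase I enzymes, 8 rose and 4 fell in each comparison, Akr1c6 by 1.55 ± 0.07 and 1.51 ± 0.07. Of 15 UDP-glucuronosyltransferases 1 rose in each (Ugt2b1), and of 21 glutathione S-transferases 2 rose in each (Gstp1 and Gstp2, which are near copies). Of 15 drug transporters 1 rose and 1 fell on NOX_6_18, and 2 rose and 1 fell in CKO, with the canalicular pump Abcc2 at -0.92 ± 0.12 and -0.95 ± 0.12. Of 14 pericentral genes 3 and 4 rose and none fell, and of 13 periportal genes 5 rose and 1 fell in each.

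Of 16 other male-biased mouse liver genes, 12 rose on NOX_6_18 in fl/fl livers and 13 in CKO livers on vehicle, and none fell, with medians of 1.25 and 1.19. Selenbp2 had 69.0 to 75.5 CPM in the other 6 liver libraries and 6.69 and 6.51 CPM in fl/fl livers on vehicle, and Mup20 had 224 to 245 CPM in the other 6 against 121 and 110.1 CPM in fl/fl livers on vehicle. Of 10 measured female-biased genes none rose and 1 fell in each comparison, the flavin monooxygenase Fmo2 at -0.37 ± 0.08 and -0.33 ± 0.08. Of 18 acute phase genes 13 rose and 2 fell in each comparison, Saa2 by 5.28 ± 0.11 and 5.36 ± 0.11. Of 17 clock output genes 1 rose (Per1) and 3 fell. The part of sex-biased, acute phase or clock programmes in the P450 values was not tested.

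In WAT, 25 of the 38 members passed the filter on low counts, and those that passed through 1 group had to be high there. On NOX_6_18 in fl/fl WAT 4 members were higher and 3 lower, against 24.6% and 13.2% of 25871 genes tested. In CKO WAT on vehicle 4 were higher and 3 lower, against 24.4% and 12.4%, sharing the fl/fl vehicle libraries. Cyp1b1 had 181 and 174 CPM in fl/fl WAT on NOX_6_18, 183 and 175 CPM in CKO WAT on vehicle and 175 and 178 CPM in CKO WAT on NOX_6_18, against 235 and 238 CPM in fl/fl WAT on vehicle. It fell by 0.42 ± 0.06 on NOX_6_18 in fl/fl and by 0.40 ± 0.06 in CKO on vehicle (log2, SE; edgeR adjusted p = 0.000825 and 0.00104). Cyp2d22 (-0.31 ± 0.10 and -0.32 ± 0.10) and Cyp2j6 (-0.40 ± 0.11 and -0.47 ± 0.11) also fell, given for the same 2 comparisons, and Cyp2e1 rose by 0.59 ± 0.15 and 0.76 ± 0.15. The Cyp2d22 calls were weak (edgeR adjusted p = 0.0433 and 0.0418) and held in 5 of 13 alternatives in each comparison. Library totals took them (adjusted p = 0.309 and 0.300), and leaving out 1 library gave 0.0271 to 0.307 for NOX_6_18 and 0.0597 to 0.198 for CKO. The Cyp2j6 calls held in 9 and 11 of 13 (edgeR adjusted p up to 0.163 and 0.0768 with 1 library left out), and those of Cyp2e1 in 10 and 13 of 13 (up to 0.0921 and 0.0321).

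Cyp3a11, lower in liver, was higher in WAT. It had 41 and 49 counts in fl/fl WAT on NOX_6_18, 59 and 65 counts in CKO WAT on vehicle and 72 and 78 counts in CKO WAT on NOX_6_18, against 4 and 0 counts in fl/fl WAT on vehicle. Cyp2d26 had 2.80 and 2.86 CPM in fl/fl WAT on NOX_6_18 and 2.67 and 3.05 CPM in CKO WAT on vehicle, against 0.272 and 0.295 CPM in fl/fl WAT on vehicle (log2 fold change 3.31 ± 0.36 on NOX_6_18 and 3.32 ± 0.36 in CKO). Cyp2c29 had 54 and 38 counts in fl/fl WAT on NOX_6_18 and 44 and 28 counts in CKO WAT on vehicle, against none in fl/fl WAT on vehicle, at least 25.5-fold and 20.4-fold higher with 3 counts over the group as the floor. No member was called on NOX_6_18 in CKO WAT, where 0.0155% of genes were, or in CKO against fl/fl WAT on NOX_6_18, where 0.0348% were. DESeq2 and limma-voom called none in either. No member had an unadjusted p under 0.05, a count for which the share of all genes was not computed.

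**Figure D5:**
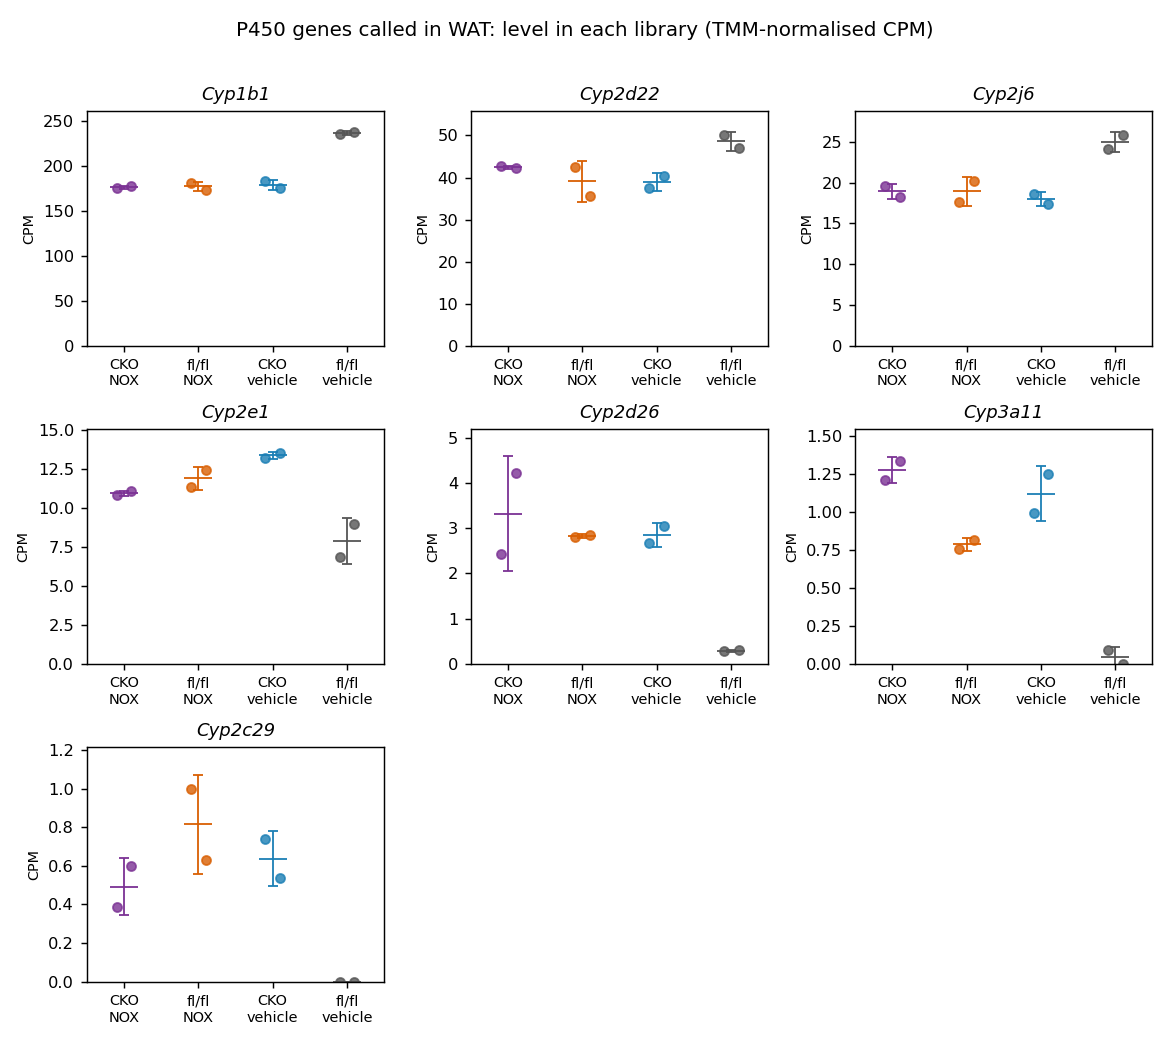
TMM-normalised CPM of the 7 members called in WAT, in CKO WAT on NOX_6_18, fl/fl WAT on NOX_6_18, CKO WAT on vehicle and fl/fl WAT on vehicle; points are libraries, bars the mean ± SD of 2. Cyp1b1 lies at 235 and 238 CPM in fl/fl WAT on vehicle and at 183 CPM or below in the other 6 libraries.

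Markers of several cell types moved with these WAT values. Hepatocyte markers summed to 51.3 to 58.9 CPM in the other 6 WAT libraries and to 14.4 to 14.8 CPM in fl/fl WAT on vehicle, with 12 of 17 above in all 6 and Apoh without a count in fl/fl WAT on vehicle. All 7 Leydig cell markers were above in all 6, with sums of 269 to 315 CPM against 30.3 to 31.7 CPM, and 7 of 8 epididymal markers, with sums of 916 to 1002 CPM against 342 to 383 CPM. Macrophage markers summed to 6823 to 6992 CPM against 9575 to 10178 CPM. Stellate cell and fibroblast markers summed to 11947 to 12316 CPM against 21791 to 22377 CPM. Of these 11 markers, 6 were called lower in each comparison, with 2 higher for NOX_6_18 in fl/fl and 3 higher for CKO on vehicle. Adipocyte markers summed to 1415 to 1588 CPM against 2149 to 2376 CPM, with 5 of 10 above in all 6 and 4 below. The part of these cells in the P450 values was not tested. For NOX_6_18 in fl/fl, the response in liver minus that in WAT was called for 8 members. These were 2 higher and 6 lower, against 7.2% and 7.52% of 26751 genes. For CKO on vehicle it was called for 10 members, 2 higher and 8 lower, against 6.75% and 7.44%. The 8 lower for CKO include Cyp2b9, a member through fl/fl vehicle liver alone, so that count is not independent of the choice of members. For Cyp3a11 the difference was -6.16 ± 0.65 for NOX_6_18 and -6.41 ± 0.64 (SE) for CKO, and for Cyp2d26 -3.83 for NOX_6_18 and -3.82 for CKO (log2). The Cyp3a11 values rest on 4 and 0 counts in fl/fl WAT on vehicle. Over the alternatives they ranged from -10.01 to -5.10 for NOX_6_18 and from -10.26 to -5.36 for CKO.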

How the data were processed

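RNA-seq of 8 liver and 8 WAT libraries was deposited by the authors as raw counts per gene, 1 table a library, with 2 libraries in each of 8 groups. Per the labels' protocols, TRIzol was used for RNA and a KAPA stranded kit for the libraries. The submitters' processing notes name HISAT, featureCounts 1.5.0, DESeq 1.8.3 and GRCm38, with no role or order. The annotation release was not given in the sources used here, nor were the strand setting and filters. Of 55421 gene IDs, 55240 (99.7%) matched GENCODE M21. No library pair was identical.

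Counts were analysed in R 4.3.3 with edgeR 4.0.16: filterByExpr, TMM normalisation within each tissue, and the quasi-likelihood test on all 4 groups of a tissue, with Benjamini-Hochberg adjustment over all genes tested and a threshold of 0.05. Liver and WAT responses were compared in 1 fit of both tissues. Dividing a log2 fold change by the root of its F statistic gave its SE. Levels in CPM use TMM library sizes, and a count of 0 allows up to 3 counts, 0.0485 to 0.0662 CPM in liver, for counting error only. The scripts were tested on simulated data. The members and gene lists were chosen with earlier results of these data known. Named genes were the 10 highest members per kilobase in liver, up to 10 called members each way per liver comparison, and a fixed set of standard P450 genes, with up to 4 called genes of each list. Genes given beyond this rule (Cyp3a59, Cyp2a22, Cyp2c40, Cyp2d40 and marker or regulator genes) were chosen after their values were seen. Alternatives were DESeq2 1.42.0, limma-voom (limma 3.58.1), library totals, other filters, a fold threshold, only the groups compared, a replicate block, leaving out mitochondrially encoded genes, each library left out and, chosen after seeing the data, scaling by hepatocyte markers.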

Additional observations from a re-analysis of the deposited data

Results flagged for a closer look

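The response to NOX_6_18 differed between CKO and fl/fl livers for Cyp3a11, by 1.87, and Cyp3a25, by 1.25 (log2, interaction term of edgeR, adjusted p = 0.0160 and 0.0347). As given above, both calls were lost in most cases with 1 library left out. The term includes the same fl/fl vehicle libraries, and no member was called for NOX_6_18 against vehicle in CKO livers.

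The response to NOX_6_18 in fl/fl mice, liver minus WAT, differed for Cyp2d26 (-3.83), Cyp3a11 (-6.16), Cyp2ab1 (-1.60), Cyp1b1 (0.35) and Cyp2d22 (0.42) on the log2 scale. It also differed for genes without a count in a group, by edgeR adjusted p: Cyp2c29 (0.0002), Cyp2j5 (0.00042) and Cyp2c54 (0.018). The difference between CKO and fl/fl mice on vehicle, liver minus WAT, was -3.82 for Cyp2d26, -6.41 for Cyp3a11, 0.38 for Cyp1b1 and 0.48 for Cyp2d22 (log2). For genes without a count in a group the edgeR adjusted p was 0.00021 for Cyp2j5, 0.00028 for Cyp2c29, 0.012 for Cyp2b9, 0.016 for Cyp2c54, 0.038 for Cyp2c65 and 0.047 for Cyp2c70. In WAT, Cyp2j5 had 9 and 8 counts in fl/fl mice on NOX_6_18 and 8 and 12 counts in CKO mice on vehicle, against none in fl/fl mice on vehicle, so these rest on few counts. Cyp2b9 is a member through fl/fl vehicle liver alone, so its difference is a description. Cyp3a11 had 4 and 0 counts in fl/fl WAT on vehicle, so the size of its difference is uncertain. The calls of Cyp2c65 and Cyp2c70 held in 8 of 16 and 8 of 17 alternatives (edgeR adjusted p up to 0.116 and 0.162 with 1 library left out), and that of Cyp2c54 in 13 of 17 in each comparison (up to 0.0918 for NOX_6_18 and 0.0798 for CKO). The Cyp2d22 call held in 9 of 17 for NOX_6_18 and 11 of 17 for CKO, and the Cyp1b1 call in 12 and 16 of 17. Cyp2b9 lost its call without fl/fl vehicle liver library 1 (0.0510).

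Outside the members, 2 P450 genes that did not pass the liver count rule had RNA in WAT above that of fl/fl mice on vehicle. Cyp2j13 had 2.80 and 3.58 CPM in fl/fl WAT on NOX_6_18 and 2.98 and 2.15 CPM in CKO WAT on vehicle, against 0.544 and 0.944 CPM in fl/fl WAT on vehicle, with log2 fold changes of 2.09 and 1.77. Cyp2c69 had 0.295 and 0.0666 CPM in fl/fl WAT on NOX_6_18 and 0.353 and 0.153 CPM in CKO WAT on vehicle, against no count in fl/fl WAT on vehicle (edgeR adjusted p = 0.045 and 0.034).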

How the results depend on the processing

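Over single genes, 2026 alternative values kept their side of the threshold, 154 lost the call, 39 gained one, and 5 were called with the opposite sign. Values that were never called could also change sign, such as Cyp2r1 for NOX_6_18 in fl/fl livers (-0.47 to 0.66) and Cyp2d10 for CKO on vehicle (-0.10 to 0.37). The 5 called reversals came with scaling by hepatocyte markers, chosen after seeing the data: Cyp2d22 to -0.48 for NOX_6_18 in fl/fl livers, -0.42 for CKO on vehicle and 0.41 for their interaction, and Cyp2e1 to -0.34 and -0.29 for NOX_6_18 and CKO. That scaling called 1 member higher and 19 lower for NOX_6_18 (0 and 6 with TMM), 1 and 25 for CKO (2 and 5 with TMM), and 13 higher for the interaction (2 with TMM). The share of all genes called was not computed for that scaling or for the other alternatives, so such counts describe the members alone.

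For NOX_6_18 in fl/fl livers, members called higher were 2 with DESeq2 and 1 each with limma-voom, no filter and the stricter filter, and members called lower were 3 with only the groups compared. For CKO on vehicle, members called higher were 1 with a fold threshold of 1 (log2) or only the groups compared, and members called lower were 3 with that threshold, without mitochondrially encoded genes or with only the groups compared. In WAT, members called lower were 0 with the fold threshold and 1 with library totals in both comparisons, and 1 for NOX_6_18 with only the groups compared. For liver minus WAT, members called higher for CKO were 0 with the fold threshold, 4 with DESeq2 and 0 with library totals, and members called lower 5 with only the groups compared. For NOX_6_18, members called higher were 0 with the fold threshold, library totals or only the groups compared, and 1 with no filter.

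With 1 library left out, members called for NOX_6_18 in fl/fl livers were 0 to 1 higher and 2 lower in each case, for CKO on vehicle 0 to 1 higher and 2 to 3 lower, and for the interaction 0 to 2 higher. In WAT, 1 to 2 were lower in both comparisons. For liver minus WAT, 0 to 3 were higher and 5 to 7 lower for NOX_6_18, and 1 to 2 higher and 5 to 9 lower for CKO. The cause of these changes was not tested. Cyp3a11 and Cyp3a25 stayed called in all 13 alternatives other than marker scaling, and under that scaling too, in both liver comparisons with fl/fl vehicle.

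The labels do not pair libraries, and deviations of same-numbered libraries correlated at -0.0274 to 0.025. With the replicate number as a block, 0 members were higher and 4 lower for CKO on vehicle in liver, and 0 and 5 for NOX_6_18 in fl/fl.

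Precision is limited by 2 libraries a group, by an unstated origin of replicates and by members of few counts, 6 of which had no count in at least 1 liver library. All calls against fl/fl vehicle rest on the same 2 libraries of a tissue.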
